A study of Mus musculus with 12 samples.

Results

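RNA from leukemic megakaryocyte-erythroid progenitors (MEP) was compared with RNA from Prdm16s GFP+ bone marrow cells, both taken from mice with leukemia. The comparison used 6 of the 12 libraries of a mouse RNA-seq study, 3 of each population. It was made over the 10565 of 24107 genes that reached 1 FPKM (fragments per kilobase of transcript, scaled for library size) in at least 3 of those 6 libraries. No measured difference entered that choice.

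All mice were C57BL/6. Leukemic MEP and GFP+ marrow cells both carried the genotype labelled Prdm16s and came from leukemic recipient mice, so any effect of Prdm16s that they share does not appear in the difference between them. The study's other 6 libraries were MEP and whole bone marrow of wild-type mice, 3 of each, and served as a MEP against marrow comparison without leukemia. Its marrow was whole rather than GFP+, so the comparisons differ in more than leukemia. Cells were sorted into Trizol, and Smart-seq2 cDNA was made from very small amounts of RNA. The labels give neither the vector, the promoter that drives Prdm16s, what GFP marks, nor the surface gate for MEP. They also do not say whether the 3 replicates of a group were separate mice, so p-values measure only the spread between these libraries.

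MEP are the bone marrow progenitors that give rise to red cells and platelets. The transcription factors GATA1, TAL1, GFI1B and KLF1 direct erythroid and megakaryocytic genes, whereas PU.1 (Spi1) and the C/EBP factors direct granulocytic and monocytic genes. Prdm16 encodes a zinc-finger transcriptional regulator found in blood stem cells and in myeloid leukemia.

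The promoters of 4 genes that stand for these programs are shown, because the results turn on erythroid and megakaryocytic genes against granule genes. Each run is the 250 bases before the start of transcription in RefSeq on build GRCm38.p6, read 5′ to 3′ on the strand of the gene. Capitals mark, for Gp5 and Kel, the GATA words AGATAA or TGATAA and also AGATAG or TGATAG on either strand, and for Itga2b and Mpo, the PU.1 word GAGGAAG on either strand. Gp5 is at chr16:30310782-30311031 and Kel at chr6:41704326-41704575, both on the minus strand. Itga2b is at chr11:102469884-102470133 on the minus strand and Mpo at chr11:87793534-87793783 on the plus strand.
Gp5: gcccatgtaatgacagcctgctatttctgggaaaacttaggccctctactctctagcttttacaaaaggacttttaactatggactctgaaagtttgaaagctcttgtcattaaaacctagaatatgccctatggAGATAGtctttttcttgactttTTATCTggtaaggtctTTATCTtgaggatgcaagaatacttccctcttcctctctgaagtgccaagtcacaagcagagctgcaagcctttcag
Kel: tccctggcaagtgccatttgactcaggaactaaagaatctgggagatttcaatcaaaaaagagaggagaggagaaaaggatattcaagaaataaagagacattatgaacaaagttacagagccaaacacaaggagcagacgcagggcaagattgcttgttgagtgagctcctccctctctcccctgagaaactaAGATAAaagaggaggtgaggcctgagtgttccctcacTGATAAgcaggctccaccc
Itga2b: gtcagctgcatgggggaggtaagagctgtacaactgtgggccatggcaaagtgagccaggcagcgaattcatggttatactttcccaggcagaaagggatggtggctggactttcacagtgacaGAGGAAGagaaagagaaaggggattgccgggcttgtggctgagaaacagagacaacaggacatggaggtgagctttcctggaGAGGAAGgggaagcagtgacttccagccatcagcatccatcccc
Mpo: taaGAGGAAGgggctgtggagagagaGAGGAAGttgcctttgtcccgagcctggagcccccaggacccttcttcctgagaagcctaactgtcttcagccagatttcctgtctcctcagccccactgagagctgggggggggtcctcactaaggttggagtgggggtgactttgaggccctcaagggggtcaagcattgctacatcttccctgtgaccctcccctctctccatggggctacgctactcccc

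The Gp5 promoter held 3 GATA words and that of Kel 2, while the promoters of Itga2b and Mpo each held 2 PU.1 words. The Gp5 promoter also held 1 PU.1 word, which is not in capitals. A GATA word was found in 17.03% of the 10825 promoters of all tested genes with an entry, in 53.33% of the 30 promoters of the erythroid list and in 38.89% of the 18 promoters of the megakaryocyte list. It was found in 0 of 10 primary granule promoters and in 40% of 25 promoters of later neutrophil genes. The PU.1 word was in 11.07% of tested promoters, in 40% of the primary granule promoters and in 33.33% of the megakaryocyte promoters. Among genes called higher in leukemic MEP 15% of 120 promoters held a GATA word, and among those called lower 21.48% of 284. For the PU.1 word these shares were 10% and 18.66%. Without the library labelled leukemic MEP 3, described below, a GATA word was in 21.22% of 608 promoters of higher genes and 20.26% of 1219 of lower genes. The PU.1 word was then in 11.51% and 16.57%. These are matches of letters within a fixed window and do not mark bound sites.

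The library labelled leukemic MEP 3 went against its label. Leukemic MEP 1 and 2 correlated with each other at 0.965 on log2(FPKM + 1) across genes, but with leukemic MEP 3 at 0.782 and 0.767. That library correlated at 0.858 to 0.896 with the 3 GFP+ marrow libraries. It was also the shallowest, at 571668 recovered reads against 9708516 and 7220438, and 1 read in it was worth 0.513 FPKM at the median gene. GFP+ marrow 2 had 1149696 reads, GFP+ marrow 1 and 3 had 7029421 and 9436785, and the 6 control libraries had 6717971 to 8987381. Results of the leukemic contrast are therefore given with all libraries and also without the library labelled leukemic MEP 3.

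Granule markers placed the same library beside marrow, as did the summed FPKM of erythroid and megakaryocyte markers but not their mean over genes. The summed FPKM of the 12 primary granule genes was 1539 and 1520.0 in leukemic MEP 1 and 2 but 25608 in leukemic MEP 3, against 31834 to 35832 in GFP+ marrow. The summed megakaryocyte and platelet genes ran the other way, with 6855 and 5874 in leukemic MEP 1 and 2, 630.0 in leukemic MEP 3 and 519.8 to 909.6 in GFP+ marrow. Erythroid genes summed to 4252, 4281 and 986 in the 3 leukemic MEP libraries and to 558, 739 and 1382 in GFP+ marrow. T and NK genes summed to 47.7 in leukemic MEP 3, within the 33.3 to 56.6 of control marrow, and to 4.79 to 14.6 in the rest of the 6 libraries. Stromal and endothelial genes were low, at 3.68 in leukemic MEP 3 and 0 to 2.10 in the rest. The part of these markers, of depth or of RNA from other cells in the differences was not tested. In bulk RNA, fewer cells of a type and less RNA per cell cannot be told apart.

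**Figure D1:**
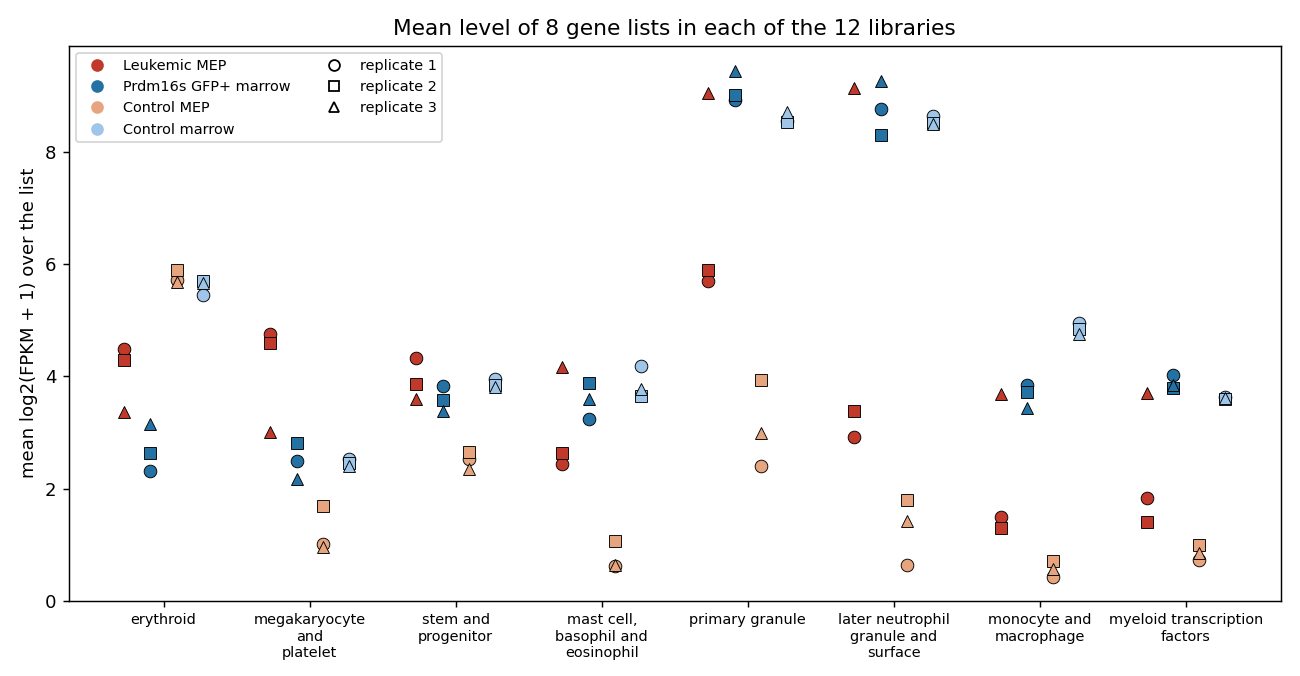
Mean log2(FPKM + 1) (y axis) over the genes of 8 lists (x axis) in each of the 12 libraries; each point is 1 library, with colour for the group and circle, square and triangle for replicates 1, 2 and 3. In the granule, monocyte and myeloid factor lists the triangle of leukemic MEP sits with the GFP+ marrow points, and the circle and square sit far below. In the erythroid and megakaryocyte lists that triangle lies above the GFP+ marrow points and below the circle and square.

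The replicates numbered 3 also differed from the others in sex-linked genes. Xist, the RNA that silences an X chromosome in females, read 49.4 and 57.1 FPKM in replicates 1 and 2 of leukemic MEP, and 39.2 and 41.2 in those of GFP+ marrow. It was at 0 in leukemic MEP 3 and 0.00658 in GFP+ marrow 3, where the Y-linked helicase gene Ddx3y read 27.6 and 23.1. All 6 control libraries carried Ddx3y, at 10.3 to 20.7, and Xist at no more than 0.0904. The sexes were thus mixed alike in both leukemic groups, while the control groups had the male pattern only. Leaving out leukemic MEP 3 left only the female pattern in leukemic MEP, while GFP+ marrow 3 kept the male pattern in its group. The part of sex in that fit was not tested.

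Prdm16 itself was read first as a check of the genotype. It was at 15.3, 6.35 and 14.1 FPKM in the leukemic MEP libraries and at 9.99, 7.09 and 10.03 in GFP+ marrow, against 0.363 to 0.957 in the 6 control libraries. All 6 leukemic libraries lay above all 6 controls, and the 2 leukemic groups overlapped. The difference between them on log2(FPKM + 1) was 0.30 ± 0.33 (SE, limma, Benjamini-Hochberg adjusted p = 0.676). The related gene Mecom had no reads in leukemic MEP and was at no more than 0.208 in GFP+ marrow, below the level required for a test.

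Leukemic MEP differed from GFP+ marrow in 382 genes in a fit that also held the 6 control libraries. Erythroid, megakaryocytic and platelet genes were among those higher, and granule, eosinophil, monocyte and MHC class II genes among those lower. Differences are leukemic MEP minus GFP+ marrow on log2(FPKM + 1), which understates the change of low genes, and a gene was called at a limma adjusted p < 0.05 over all genes tested. The 382 calls were 3.62% of the genes tested, with 124 higher (1.17%) and 258 lower (2.44%), and 348 of them differed by at least 1 log2 unit. Without leukemic MEP 3, 1735 genes were called (16.4%), 585 higher (5.54%) and 1150 lower (10.9%). All 382 were called again in the same direction there. The median difference over all genes was -0.01, and 0.05 without leukemic MEP 3.

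These counts rest on the spread shared by 4 groups and on single libraries. At the median gene, libraries varied more within the leukemic groups than within the control groups, and the shared spread averages over both. A fit of only the 2 groups called 0 genes by limma, with 1108 at an unadjusted p under 0.05, against 2025 in the fit of 4 groups. Kel and Vwf, for example, had limma adjusted p = 0.283 in the fit of 2 groups. Their SE was 0.42 and 0.45 there, against 0.29 and 0.34 in the fit of 4 groups. The same 2 groups without leukemic MEP 3 gave 1055 calls (9.99%), 266 higher (2.52%) and 789 lower (7.47%). Without leukemic MEP 1 or 2 the fit of 4 groups called 52 and 63 genes, and without GFP+ marrow 1, 2 or 3 it called 169, 100 and 233. Without control MEP 1, 2 or 3 it called 234, 224 and 161, and without control marrow 1, 2 or 3 it called 167, 175 and 158. Rescaling the libraries to equal FPKM totals moved the median of all genes to 0.37 and turned the split to 540 higher and 146 lower, while quantile normalization gave 115 and 129. The medians of the erythroid, megakaryocyte, granule, monocyte and MHC class II lists kept their sign under both scalings.

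In 809 genes (7.66% of those tested) every leukemic MEP library lay above every GFP+ marrow library, and in 920 (8.71%) every one lay below. Of the called genes, 122 of the 124 higher and 255 of the 258 lower were separated in this way. Genes that reached 1 FPKM in only 1 of the 2 groups also entered, and these are separated by that choice. An example is Angptl8, at 0, 0.141 and 0 in leukemic MEP against 4.42, 5.35 and 4.91 in GFP+ marrow. The smallest exact permutation p for 3 against 3 is 0.1, so a single gene could not be called by permutation. In 12 fits that each left out 1 library, 37 genes were called every time, 11 higher and 26 lower. The named genes among them were Vwf, Aqp1, Kel, Cystm1, H2-Eb1 and H2-Ab1. Other named genes called with all libraries lost their call in up to 11 of these fits, as Gata1 and Epx did. Itga2b and Ms4a3 lost theirs in 10.

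The erythroid list had a positive median in leukemic MEP, and more of its genes passed without leukemic MEP 3. Of 28 tested erythroid genes, 8 rose and 0 fell with all libraries, where 1.17% of all tested genes rose. Without leukemic MEP 3, 19 rose and 0 fell, where 5.54% of all tested genes rose. The list median was 1.79, and 2.34 without that library. In 9 of the 28 genes all leukemic MEP libraries lay above GFP+ marrow, as in 7.66% of all genes tested.

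Kel, a blood group glycoprotein of the red cell surface, was at 13.7, 12.98 and 7.32 FPKM in the leukemic MEP libraries and 0.730, 1.84 and 2.44 in GFP+ marrow. All 3 leukemic MEP libraries lay above all 3 marrow libraries, on 383, 267 and 11 reads against 12, 5 and 52. The difference was 2.22 ± 0.29 (limma adjusted p = 0.00474), and it was 2.48 ± 0.27 without leukemic MEP 3. The water channel gene Aqp1 was at 161, 113 and 55.8 against 6.16, 13.1 and 24.2, again without overlap. Its difference was 2.90 ± 0.44 (limma adjusted p = 0.00928), and 3.31 without leukemic MEP 3. The lipid transporter gene Mfsd2b, active in erythroid cells and platelets, had the largest positive difference of the named genes that were called with all libraries. It read 105, 62.0 and 17.5 against 4.72, 5.85 and 0.287, a difference of 3.75 ± 0.64 (limma adjusted p = 0.0138), and 4.47 without leukemic MEP 3. The cytoskeletal gene Tmod1 and the tetraspanin gene Tspan33 rose by 1.87 and 2.41, and by 2.08 and 3.12 without that library.

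Transcription factors of the megakaryocytic and erythroid lineages rose in 3 of 14 cases (1.17% of all tested genes), and in 10 of 14 without leukemic MEP 3 (5.54%), with 0 lower in either fit. Gfi1b, a repressor required for both lineages, was at 208, 118 and 30.3 FPKM against 10.7, 13.2 and 15.5, with no overlap, and differed by 2.72 ± 0.51 (limma adjusted p = 0.018), and by 3.50 without leukemic MEP 3. Tal1 was at 33.2, 44.3 and 9.38 against 1.93, 5.84 and 4.41, a difference of 2.40 ± 0.48 (limma adjusted p = 0.0225), and 3.05 without that library. Gata1 was at 242, 209.6 and 37.7 against 20.1, 24.6 and 39.0, so that leukemic MEP 3 lay within the marrow range. Its difference was 2.17 ± 0.54 (limma adjusted p = 0.0463), and 3.02 ± 0.25 without that library (adjusted p = 2.5e-06).

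Klf1 and the erythropoietin receptor gene Epor passed only without leukemic MEP 3. Klf1, the factor that drives adult globin genes, was at 278, 213 and 41.5 FPKM against 12.6, 24.8 and 69.9, with limma adjusted p = 0.088 over all libraries and 0.00102 without the third. Epor was at 46.2, 37.4 and 4.41 against 4.36, 8.79 and 0 (limma adjusted p = 0.116, and 0.00259 without leukemic MEP 3). The beta globin gene Hbb-bs was at 815, 1362 and 47.1 against 105, 197 and 48.3 (limma adjusted p = 0.353, and 0.00429 without it). In all 3 genes leukemic MEP 1 and 2 were above every GFP+ marrow library and leukemic MEP 3 was not.

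Among the haem synthesis enzymes tested, Alas1 alone passed with all libraries. Alas1, which makes the first haem precursor in most tissues, was at 16.4, 30.3 and 363 FPKM in the leukemic MEP libraries and 731, 702 and 811 in GFP+ marrow. It was lower without overlap, with a difference of -3.68 ± 0.78 (limma adjusted p = 0.0285), and -5.00 without leukemic MEP 3. Alas2, its erythroid counterpart, was at 0.454 to 1.69 in all 6 libraries, against 48.2 to 53.9 in control marrow. The haem-degrading enzyme Hmox1 fell by 2.36 ± 0.47 (limma adjusted p = 0.0225), from 11.5, 5.29 and 26.8 in GFP+ marrow to 1.37, 1.16 and 2.12, and its difference was -2.52 without leukemic MEP 3. No other of the 17 tested haem and iron genes passed with all libraries, and without leukemic MEP 3 the enzymes Alad and Urod and the transporter Abcb6 were among those higher.

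Megakaryocyte and platelet genes were higher in leukemic MEP. With all libraries 7 of 24 tested genes rose (1.17% of all tested genes) and 0 fell, with a list median of 2.12. In 12 of the 24 leukemic MEP was above marrow without overlap (7.66% of all genes). Without leukemic MEP 3 it was 20 that rose (5.54%) and 1 that fell, Thbs1, with a median of 2.89. The 7 were Itga2b, Itgb3, Gp5, Gp9, Vwf, Mmrn1 and Nrgn, and they include both chains of the platelet fibrinogen receptor and subunits of the von Willebrand factor receptor.

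Vwf, the adhesive protein stored in platelet granules, was at 12.1, 8.19 and 4.96 FPKM in the leukemic MEP libraries and 0.763, 1.14 and 0.196 in GFP+ marrow. The groups were apart, and the difference was 2.44 ± 0.34 (limma adjusted p = 0.00711), and 2.73 without leukemic MEP 3. Gp5, a von Willebrand receptor subunit whose promoter with 3 GATA words is printed above, was at 181, 148 and 19.0 against 6.89, 10.5 and 3.38. Its difference of 3.47 ± 0.66 (limma adjusted p = 0.0194) was 4.48 ± 0.35 without leukemic MEP 3. Gp9, a further subunit, was at 165, 110.3 and 35.1 against 16.6, 13.7 and 8.29 (difference 2.70 ± 0.48, limma adjusted p = 0.0162, and 3.34 without it). Itga2b, which encodes the integrin CD41, was at 47.4, 32.6 and 9.05 against 3.49, 4.47 and 4.89. The lowest leukemic MEP library was again the third, and the difference was 2.27 ± 0.51 (limma adjusted p = 0.0349), and 2.94 without that library.

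**Figure D2:**
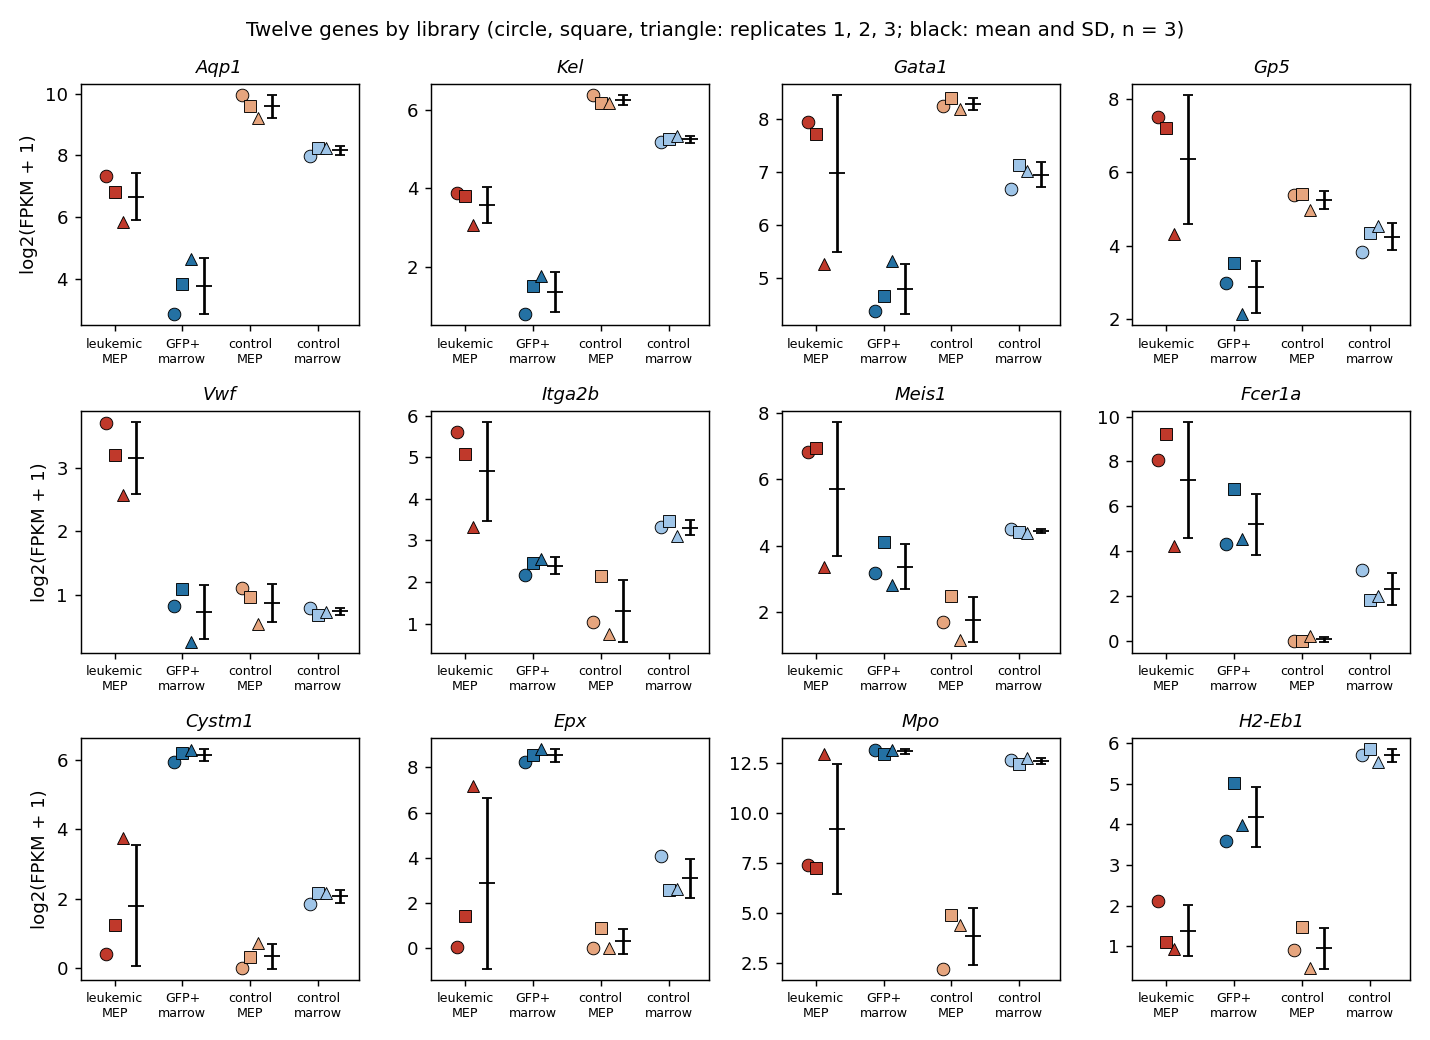
log2(FPKM + 1) (y axis) of 12 genes in each library of the 4 groups; circle, square and triangle are replicates 1, 2 and 3, and the black bar is the mean with its SD (n = 3). Aqp1, Kel, Gp5, Vwf and Itga2b lie above GFP+ marrow and Cystm1, Epx, Mpo and H2-Eb1 below it in all 3 leukemic MEP libraries, while the triangle of leukemic MEP lies beside GFP+ marrow in Mpo.

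The most abundant platelet transcripts varied more. The chemokine gene Pf4 reached 5067 and 4225 FPKM in replicates 1 and 2 of leukemic MEP but 82.6 in leukemic MEP 3, below the 176 to 421 of GFP+ marrow. Its limma adjusted p was 0.465, and 0.0154 without leukemic MEP 3. Ppbp was at 252, 204 and 150.1 against 27.6, 63.4 and 0.109 (limma adjusted p = 0.0654, and 0.0315 without it). Rescaling to equal FPKM totals brought Ppbp past the threshold with all libraries.

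Other genes higher with all libraries were Aldh1a1, Tgfbr3 and Nrgn. Aldh1a1, a retinaldehyde dehydrogenase, was at 91.5, 218 and 23.1 FPKM against 3.16, 17.8 and 13.6, a difference of 2.91 ± 0.68 (limma adjusted p = 0.0383). Tgfbr3, a TGF-beta co-receptor, was at 13.6, 16.5 and 3.02 against 0.929, 0.759 and 0 (difference 2.75, limma adjusted p = 0.0162). Nrgn, a calmodulin-binding protein found in platelets, was at 15.9, 12.6 and 3.88 against 0.710, 1.43 and 0, with 3 reads in leukemic MEP 3. Without that library the differences of Aldh1a1, Tgfbr3 and Nrgn were 3.77, 3.41 and 3.24. Mir3470a and Mir7036 were also ranked among the largest positive differences, but they rested on 1 to 3 reads in each leukemic MEP library and cannot be interpreted.

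Stem and progenitor genes did not move as a block. Of 22 tested, 1 rose with all libraries (1.17% of all tested genes), the TGF-beta co-receptor gene Eng. Without leukemic MEP 3 it was 8 that rose (5.54%) and 3 that fell (10.9%). The list median was 0.23, and 0.41 without that library. Eng was at 40.1, 27.2 and 22.5 FPKM against 12.9, 13.2 and 13.4, a difference of 1.08 ± 0.23 (limma adjusted p = 0.028), and 1.26 without leukemic MEP 3. The homeobox gene Meis1 was at 111, 121 and 9.36 against 8.07, 16.3 and 6.02, called only without leukemic MEP 3 (limma adjusted p = 3.92e-05, against 0.109). Gata2, a stem and progenitor factor, was at 91.0, 63.3 and 33.5 against 27.6, 25.7 and 7.39, without overlap (limma adjusted p = 0.059, and 0.00429 without leukemic MEP 3). Mycn, Slamf1, Lmo2 and Angpt1 were also among the genes higher in the fit without leukemic MEP 3, and Cd34, Ly6a and Myb were those lower.

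The antigens commonly used to sort MEP differed between leukemic MEP 3 and the other 2 libraries. MEP are sorted as Kit-positive cells with little CD34 and CD16/32, the latter encoded by Fcgr3 and Fcgr2b. Kit was at 38.5, 21.3 and 76.1 FPKM in the leukemic MEP libraries and 41.3, 38.5 and 22.1 in GFP+ marrow (limma adjusted p = 0.783). Cd34 was at 9.53, 3.41 and 51.7 against 74.4, 24.4 and 61.7, and Fcgr3 at 0.431, 0.252 and 72.4 against 32.1, 18.4 and 60.8. Both were low in leukemic MEP 1 and 2 only, and neither passed with all libraries (limma adjusted p = 0.165 for Cd34 and 0.21 for Fcgr3). Of the 7 sorting antigens tested, 0 were called with all libraries and 6 were lower without leukemic MEP 3 (10.9% of all tested genes).

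The medians of both neutrophil granule lists were negative in leukemic MEP, but most of their genes passed only without leukemic MEP 3. Among 11 tested primary granule genes 2 fell with all libraries, Ms4a3 and Gstm1, where 2.44% of all tested genes fell. It was 9 that fell without leukemic MEP 3 (10.9% of all genes), and the list medians were -3.09 and -4.21. In 9 of the 11 leukemic MEP was below marrow without overlap (8.71% of all genes). Of 27 later neutrophil genes 2 fell with all libraries, Retnlg and Pglyrp1, not far from the 2.44% of all genes, and 26 fell without leukemic MEP 3 (10.9%), with medians of -3.87 and -6.05. In this list leukemic MEP was below marrow without overlap in 5 genes (8.71% of all genes).

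Mpo, the myeloperoxidase of primary granules, was at 167, 150.2 and 7897 FPKM in the leukemic MEP libraries and 9155, 7922 and 9221 in GFP+ marrow. Leukemic MEP 3 lay just under the marrow range and the other 2 far below it. The difference was -3.90 ± 1.2 with all libraries (limma adjusted p = 0.0888) and -5.78 ± 0.55 without leukemic MEP 3 (adjusted p = 8.58e-06). Elane, neutrophil elastase, was at 52.7, 151 and 7001 against 8194, 8766 and 11169 (limma adjusted p = 0.0926, and 8.94e-05 without it). S100a8, a calcium-binding alarmin of neutrophils and monocytes, was at 348, 1444 and 38572 against 69537, 49841 and 66431 (limma adjusted p = 0.0843, and 0.000133 without it).

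Several granulocyte genes passed with all libraries. Ms4a3, a marker of granulocyte-monocyte progenitors, was at 120.0, 205 and 510.0 FPKM against 823, 1229.7 and 995, a difference of -2.10 ± 0.52 (limma adjusted p = 0.0461). This gene was not called after rescaling to equal FPKM totals. Gstm1, a glutathione transferase, was at 66.0, 53.2 and 612 against 928, 1186 and 1258 (limma adjusted p = 0.0302). Retnlg, a resistin-like peptide of neutrophils, was at 8.62, 5.48 and 153 against 235, 197 and 342 (limma adjusted p = 0.0428). Pglyrp1, a peptidoglycan recognition protein of neutrophil granules, fell by 3.63 ± 0.91 (limma adjusted p = 0.0475). Leaving out leukemic MEP 3 gave differences of -2.67 for Ms4a3, -4.21 for Gstm1, -5.00 for Retnlg and -5.06 for Pglyrp1.

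The largest negative difference among the named genes was that of Epx, the eosinophil peroxidase. It was at 0.0334, 1.68 and 143 FPKM in the leukemic MEP libraries and 300.2, 375 and 447 in GFP+ marrow, a difference of -5.65 ± 1.30 (limma adjusted p = 0.0376), and -7.80 without leukemic MEP 3. Clec4b2, Lrg1, Clec12a, Cystm1, Mgst2, Ccl6, Mgst1, Ly86 and Clec5a followed, with differences from -5.05 to -4.01, and from -6.84 (Clec4b2) to -5.31 (Cystm1) without that library. They include C-type lectin receptors of myeloid cells, microsomal glutathione transferases and a chemokine. Cystm1, a small membrane protein, had the smallest adjusted p of these, with 0.334, 1.36 and 12.4 against 60.3, 72.3 and 76.8 (difference -4.34 ± 0.63, limma adjusted p = 0.0078). Leukemic MEP 3 was the highest of the leukemic MEP libraries in all 10 genes and was below every GFP+ marrow library in each.

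Mast cell, basophil and eosinophil genes went both ways. Of 10 tested, 1 fell with all libraries, Epx (2.44% of all tested genes fell), and without leukemic MEP 3 it was 4 that rose (5.54%) and 4 that fell (10.9%), with list medians of -0.30 and -0.44. The first of these medians turned to 0.03 after rescaling to equal FPKM totals. The IgE receptor gene Fcer1a was at 265, 590.2 and 17.95 FPKM against 18.6, 107 and 22.0 (limma adjusted p = 0.311, and 0.00192 without leukemic MEP 3). The granzyme gene Gzmb was at 227, 257 and 20.1 against 22.8, 47.1 and 8.75, and was also higher only without that library. The eosinophil granule gene Prg2 ran opposite, with 2.04, 13.3 and 1065 against 1221, 1485 and 2402. Mcpt8, Hdc and Prg2 joined Epx among the genes lower in the fit without leukemic MEP 3.

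Of 18 monocyte and macrophage genes 3 fell with all libraries (2.44% of all tested genes) and 13 without leukemic MEP 3 (10.9%), with medians of -1.75 and -2.49 and with 0 higher in either fit. The lysosomal protease gene Ctss was at 2.84, 0.720 and 34.5 FPKM against 89.0, 100.1 and 44.4, a difference of -3.60 ± 0.79 (limma adjusted p = 0.0326). The scavenger receptor gene Cd68 was at 26.9, 23.9 and 98.01 against 138, 144 and 152 (difference -1.83, limma adjusted p = 0.0356). The differences of Ctss and Cd68 were -4.86 and -2.47 without leukemic MEP 3. Ms4a6c was the other called gene. Csf1r, the macrophage growth factor receptor, was at 0.0489, 0.0666 and 18.5 against 12.8, 5.38 and 7.84, so that leukemic MEP 3 was the highest of the 6 (limma adjusted p = 0.3, and 2.34e-05 without it).

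MHC class II and dendritic cell markers numbered 5 among the tested genes, of which 2 fell with all libraries (2.44% of all tested genes) and 4 without leukemic MEP 3 (10.9%), with medians of -2.60 and -2.39. H2-Eb1, a class II beta chain, was at 3.32, 1.15 and 0.923 FPKM against 10.98, 31.2 and 14.8, a difference of -2.81 ± 0.42 (limma adjusted p = 0.00876). H2-Ab1 was at 19.6, 7.44 and 6.98 against 47.1, 117 and 56.9 (difference -2.63 ± 0.41, limma adjusted p = 0.00984). The differences of H2-Eb1 and H2-Ab1 were -2.58 and -2.39 without leukemic MEP 3. In both genes leukemic MEP 3 was the lowest of the 6 libraries. It had only 1 read for H2-Eb1 and 5 for H2-Ab1, so its rank among the leukemic MEP libraries is uncertain. Among 7 tested B lymphoid genes 0 were called with all libraries and Dntt was lower without leukemic MEP 3, and of the 2 tested T and NK genes 0 were called in either fit.

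Transcription factors of the myeloid lineages were lower in 1 of 12 genes with all libraries (2.44% of all tested genes) and in 9 of 12 without leukemic MEP 3 (10.9%), with medians of -1.83 and -2.64. Id2, an inhibitor of basic helix-loop-helix factors, was at 10.4, 7.12 and 27.6 FPKM against 79.1, 59.0 and 43.7, a difference of -2.11 ± 0.39 (limma adjusted p = 0.0176), and -2.64 without leukemic MEP 3. Spi1, which encodes PU.1, was at 83.3, 42.6 and 298 against 419.6, 340.0 and 378, below marrow in every library (limma adjusted p = 0.0693, and 4.92e-05 without leukemic MEP 3). Cebpa was at 3.95, 1.53 and 10.8 against 16.2, 16.8 and 12.6 (limma adjusted p = 0.07, and 0.00042 without that library).

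Of 20 growth factor, cytokine and chemokine receptors, 2 fell with all libraries, where 2.44% of all tested genes fell. Ifngr1, a chain of the interferon gamma receptor, was at 116, 110.2 and 269.6 FPKM against 409, 422 and 399, a difference of -1.44 ± 0.30 (limma adjusted p = 0.0274). Ccr1, a receptor of inflammatory chemokines, fell by 2.48 ± 0.58 (limma adjusted p = 0.0393). Leaving out leukemic MEP 3 gave -1.85 for Ifngr1 and -3.24 for Ccr1. Ifngr1 was not called after rescaling to equal FPKM totals. Without leukemic MEP 3, Epor was among the receptors that were higher and 10 receptors were lower (10.9% of all tested genes), including those for G-CSF (Csf3r), M-CSF and GM-CSF. The chemokine receptor gene Cxcr2 was at 47.1, 48.8 and 26.4 against 29.5, 22.5 and 30.6 and was not called in either fit. All 6 tested genes of the phagocyte NADPH oxidase were lower without leukemic MEP 3, and 0 were called with all libraries.

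In the following lists of general cell functions few genes were called with all libraries. Of 30 cell cycle genes 0 were called with all libraries and 1, Ccnd2, was higher without leukemic MEP 3, with medians of 0.17 and 0.15. The proliferation marker Mki67 was at 12.4, 28.0 and 18.3 FPKM against 11.3, 6.62 and 10.98, higher without overlap (difference 0.91 ± 0.32, limma adjusted p = 0.136, and 0.097 without leukemic MEP 3). After rescaling to equal FPKM totals, 3 cell cycle genes, Mki67 included, and 4 of 21 ribosome biogenesis genes were called higher. That scaling called 540 of all 10565 tested genes higher and moved the median of all genes to 0.37. The ribosome biogenesis list had 0 called genes with all libraries as deposited and 3 higher without leukemic MEP 3, and the 22 oxidative phosphorylation genes had 0 in both fits. Of 12 MHC class I genes 1 rose with all libraries, the class I transactivator gene Nlrc5 (5.65, 5.97 and 10.1 against 3.36, 2.52 and 1.15, limma adjusted p = 0.0394). Nlrc5 lost its call in 10 of the 12 fits that left out a library, as did Itga2b and Ms4a3, among others. In the fit without leukemic MEP 3, Nlrc5 was the 1 class I gene that was higher (limma adjusted p = 0.0284), and 2 were lower. Of 18 glycolysis genes Pgam1 was called, lower, but it has near-identical copies whose reads cannot be told apart, so its value is uncertain. There were 3 glycolysis genes higher and 5 lower without leukemic MEP 3, where 5.54% and 10.9% of all tested genes were. Interferon-stimulated genes (17 tested) and immediate early and heat shock genes (15 tested) had 0 called with all libraries. The first list had 1 lower, and the second 1 higher and 1 lower, without leukemic MEP 3.

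**Figure D3:**
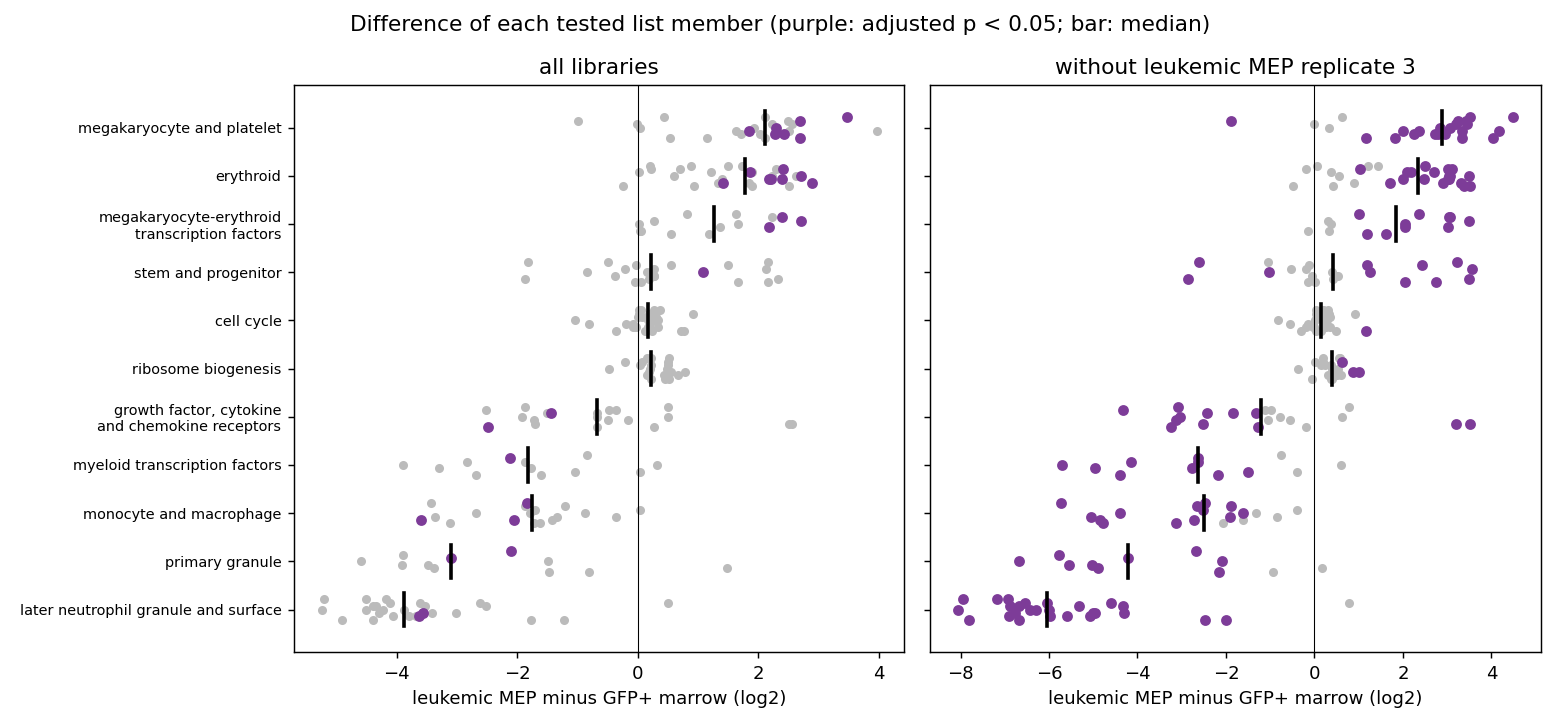
Difference of each tested list member (x axis), leukemic MEP minus GFP+ marrow on log2(FPKM + 1), with all libraries (left) and without leukemic MEP 3 (right); each point is 1 gene, purple where the limma adjusted p is under 0.05, and the black bar is the list median. The megakaryocyte and platelet median moves from 2.12 to 2.89 and the later neutrophil median from -3.87 to -6.05.

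The corresponding contrast in wild-type mice, control MEP minus whole control marrow, used no library of the leukemic contrast. Its genes, though, were those chosen by their level in the 6 leukemic libraries. The wild-type contrast called 1411 of the 10565 genes (13.4%), 227 higher (2.15%) and 1184 lower (11.2%). Of the 258 genes lower in leukemic MEP, 160 (62.0%) were lower in control MEP, which is 13.5% of the 1184, and 0 were higher. Of the 124 genes higher in leukemic MEP, 8 (6.45%) were higher in control MEP, which is 3.52% of the 227, 14 were lower and 102 were not called. Both contrasts came from 1 fit with a shared estimate of the spread, so the wild-type count was 2437 without leukemic MEP 3. It was 905 without control MEP 3, and 843 and 936 without control marrow 1 and 3. The median difference over all genes was 0.04 in wild-type mice.

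The medians of the granule and monocyte lists were negative in both settings, and the megakaryocyte list had opposite medians. In wild-type mice 10 of 11 primary granule genes, 27 of 27 later neutrophil genes and 18 of 18 monocyte genes were lower in MEP (11.2% of all tested genes), with medians of -6.68, -7.60 and -5.00. Erythroid genes had a median of 1.01 there, with 2 higher and 3 lower. Megakaryocyte and platelet genes had a median of -1.24 in wild-type mice, with 0 higher and 7 lower, against 2.12 in the leukemic contrast. Itga2b, for example, was at 1.05, 3.44 and 0.673 FPKM in control MEP and 9.06, 10.03 and 7.61 in control marrow.

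The difference between the 2 contrasts was tested as an interaction in the fit of 4 groups. It was called in 397 genes (3.76%), of which 374 (3.54%) had a more positive MEP minus marrow difference in leukemic mice and 23 (0.218%) a more negative one. Without leukemic MEP 3 it was 875 genes (8.28%), 687 more positive (6.50%) and 188 more negative (1.78%), and without control MEP 1, 2 or 3 it was 247, 259 and 185. Without control marrow 1, 2 or 3 it was 188, 212 and 201. In 295 of the 374 the gene was lower in control MEP than in control marrow and not called between the leukemic groups. The choice of genes by their leukemic levels left out genes found mainly in control cells. Without the filter on low values the interaction was called in 543 of 15162 genes, 492 more positive and 51 more negative. Replicates 1 and 2 of both leukemic groups had the female pattern and all control libraries the male one, so sex and leukemia cannot be told apart for those replicates. Marrow was GFP+ cells of recipient mice in the leukemic contrast and whole marrow in the wild-type contrast. Leukemia and this choice of marrow cells cannot be told apart in the interaction either.

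Megakaryocyte and platelet genes held 13 of these interactions among 24 tested, all positive (3.54% of all tested genes), and 19 without leukemic MEP 3. The interaction was 4.26 ± 0.72 for Itga2b (limma adjusted p = 0.00628) and 2.30 ± 0.48 for Vwf (0.0211), and 4.93 and 2.60 without that library. Vwf was at 0.454 to 1.16 FPKM in the 6 control libraries, close to the 0.196 to 1.14 of GFP+ marrow. Erythroid genes held 4 among 28 tested, the globin genes Hba-a2 and Hbb-bs, Alas2 and Tmod1, and 11 without leukemic MEP 3 (6.50% of all tested genes), all positive. Hbb-bs was at 8.39, 66.2 and 13.1 in control MEP and 1337, 2058 and 1466 in control marrow, an interaction of 8.16 ± 1.49 (limma adjusted p = 0.00968), and 9.65 without leukemic MEP 3.

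For Kel, Gfi1b and Gata1 the interaction was called only without leukemic MEP 3. With all libraries it was 1.23 ± 0.41 for Kel (limma adjusted p = 0.149), 1.38 ± 0.72 for Gfi1b (0.377) and 0.85 ± 0.76 for Gata1 (0.637). Once leukemic MEP 3 was left out it was 1.49 ± 0.36 for Kel (limma adjusted p = 0.0219), 2.15 ± 0.36 for Gfi1b (0.00257) and 1.70 ± 0.34 for Gata1 (0.00757). Their levels did differ between the settings: Kel was at 70.6 to 82.4 FPKM in control MEP and 34.9 to 39.3 in control marrow, above all 6 leukemic libraries. Gfi1b was at 442 to 509 in control MEP and 138 to 224 in control marrow, while GFP+ marrow did not exceed 15.5.

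Among the named myeloid genes whose interaction was called with all libraries, the negative difference was larger in wild-type mice, and without leukemic MEP 3 others went the opposite way. Ms4a3 was at 0.171, 3.72 and 0.743 FPKM in control MEP and 383, 381 and 441 in control marrow, an interaction of 5.46 ± 0.73 (limma adjusted p = 0.00167). Spi1 was at 2.11 to 5.36 in control MEP and 42.6 to 298 in leukemic MEP, an interaction of 3.45 ± 0.74 (limma adjusted p = 0.0226). The ETS factor gene Fli1 was at 2.55 to 4.66 in control MEP and 32.9 to 52.6 in control marrow, but at 103, 99.5 and 55.9 in leukemic MEP and 70.5, 83.2 and 88.8 in GFP+ marrow. Its leukemic difference was 0.04 ± 0.28 (limma adjusted p = 0.949), and its interaction 3.21 ± 0.40 (adjusted p = 0.00105). Hmox1 had an interaction of 3.83 ± 0.67, with 178 to 212 in control marrow against 5.29 to 26.8 in GFP+ marrow. The interactions of Ms4a3, Spi1, Fli1 and Hmox1 were 4.89, 2.68, 3.49 and 3.67 without leukemic MEP 3.

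Interactions in the negative direction, where leukemic MEP was further below its marrow than control MEP was, were called for 5 named genes without leukemic MEP 3. They were -5.00 ± 0.67 for Epx (limma adjusted p = 0.000545), -3.59 ± 0.43 for Cystm1 (0.000224), -3.23 ± 0.75 for Clec4b2 (0.0179), -2.08 ± 0.25 for Ifngr1 (0.000224) and -1.35 ± 0.32 for Alas1 (0.0206). With all libraries the limma adjusted p of these genes was 0.481, 0.155, 0.714, 0.0515 and 0.995. Ifngr1 differed by 0.23 between control MEP and control marrow.

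**Figure D4:**
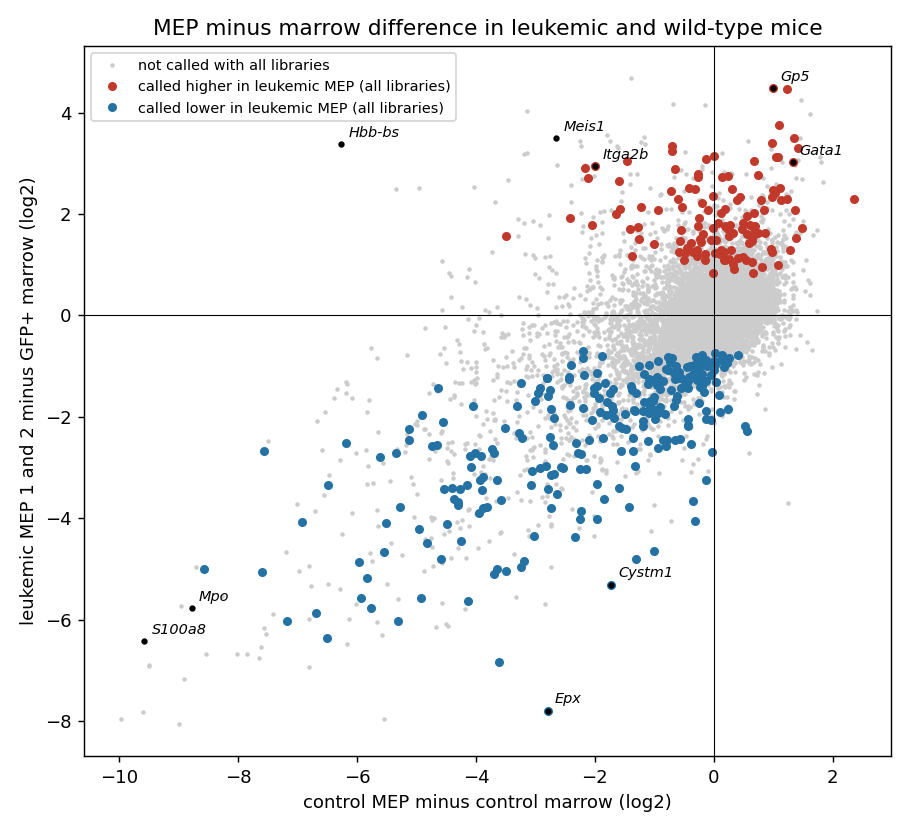
Difference of MEP minus marrow on log2(FPKM + 1) for all 10565 genes, in wild-type mice (x axis) and in leukemic mice without leukemic MEP 3 (y axis); each point is 1 gene, red and blue mark the 124 higher and 258 lower genes called with all libraries, and no library enters both axes. Mpo and S100a8 are far below 0 on both axes, while Itga2b is above 0 in leukemic mice and below 0 in wild-type mice.

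Some genes separated the groups tightly in all libraries, the library labelled leukemic MEP 3 included. They were chosen for naming after their values were seen, from the 37 genes called in each of the 12 fits that left out a library. Rbm47, an RNA-binding protein, was at 0.773, 1.52 and 1.66 FPKM in the leukemic MEP libraries and 10.8, 11.3 and 10.95 in GFP+ marrow, a difference of -2.40 ± 0.25 (limma adjusted p = 0.00194), and -2.51 without leukemic MEP 3. Ctnnal1, a catenin-like protein, was at 4.001, 4.54 and 3.81 against 0.162, 0.281 and 0.268, and at 0.423 to 1.30 in the control libraries. Sat1, which acetylates polyamines, was at 116, 122 and 182 against 393, 504 and 626. In all 3 genes leukemic MEP 3 lay nearer to leukemic MEP 1 and 2 than to any GFP+ marrow library.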

How the data were processed

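Smart-seq2 libraries of 12 samples were analysed from 1 deposited table of FPKM values, computed by the authors for 24107 genes. Per the submitters' processing notes, CASAVA, bcl2fastq, STAR 2.5.3a, DESeq2 1.18.1 and build mm10 were used. Which annotation and which counter were used is not given in the sources used here. In all 16728 genes above 0 the FPKM could be written as whole reads (tolerance 0.02 of a read), on denominators proportional to size factors. FPKM sums therefore differed, from 393786 to 622546, and recovered reads spanned 17.0-fold between libraries. The depth sets the precision, and FPKM from few reads is coarse.

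Genes with at least 1 FPKM in at least 3 of the 6 leukemic libraries were tested with limma 3.58.1 (limma-trend, R 4.3.3) on log2(FPKM + 1). A single model held all 4 groups, which left 8 residual degrees of freedom, and p-values were adjusted by Benjamini-Hochberg over all 10565 genes. The script was tested on simulated data. Tables and figures were made with Python 3.11.15, numpy 2.4.6, pandas 2.3.3 and matplotlib 3.10.9. The genes, lists and tests were chosen with earlier results of these data known. Named genes were a fixed set of 26, the 10 largest called differences in each direction that were also called without leukemic MEP 3 and averaged 10 FPKM or more in the higher group, and for each list the 2 called members with the smallest p and up to 2 in the other direction. The ranking skipped unnamed genes, receptor segments, Xist and genes of the Y chromosome. Other genes the text names, such as further members of the lists, were chosen after their values were seen. Hba-a1, Hbb-bt, Ahsp and Ighm were not analysed here. A few other genes stayed in the fit and in the counts of lists but are not reported here. Promoters came from RefSeq GRCm38.p6, where 8557 of the 10565 tested genes had an entry. Alternatives were other pseudocounts, filters and scalings, array weights, voom on the recovered reads, a fit of 2 groups, a replicate block and leaving out each library.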

Additional observations from a re-analysis of the deposited data

Results flagged for a closer look

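Of the 62 named genes reported here, 15 had a MEP minus marrow difference that differed between leukemic and wild-type mice by the interaction term of the limma fit (adjusted p under 0.05). In every one the difference was more positive in leukemic mice, on log2(FPKM + 1). Over all 10565 genes tested 397 were called (3.76%), and 374 of these were also more positive, so this direction is not particular to the named genes. The megakaryocyte and platelet genes were Itga2b (4.26), Nrgn (3.40), Gp9 (3.40), Fli1 (3.21) and Vwf (2.30). The interaction of the beta globin gene Hbb-bs was 8.16, the largest of the 15. Stem and progenitor genes were Meis1 (4.99), Cd34 (4.41) and Flt3 (3.59). Myeloid genes were Ms4a3 (5.46), Retnlg (5.01), Spi1 (3.45) and Cd68 (3.29), and the haem-degrading enzyme gene Hmox1 had 3.83. Mir7036 had 3.72 on 1 to 3 reads in each leukemic MEP library, which cannot be interpreted. All 15 were called in the same direction without leukemic MEP 3. Leukemic and wild-type mice also differed in sex-linked genes in replicates 1 and 2, whose part in these values was not tested. Their marrow samples differed as well, GFP+ cells against whole marrow, and the part of this choice was not tested.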

How the results depend on the processing

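Against 382 genes called between leukemic MEP and GFP+ marrow, a pseudocount of 0.1 gave 183, no filter on low values 241, equal FPKM totals 686, quantile normalization 244, array weights 3346 and voom on the recovered reads 1733. A fit of only the 2 groups gave 0 (1108 at an unadjusted p under 0.05), and without leukemic MEP 3 it gave 1055. Leaving out each library gave 52 to 1735. Against 1411 genes between control MEP and control marrow, array weights gave 5165, voom 2410 and leaving out each library 843 to 2437. Against 397 interactions, quantile normalization gave 229, array weights 2868, voom 770 and leaving out each library 185 to 875. Leaving out both shallow libraries, leukemic MEP 3 and GFP+ marrow 2, was an alternative chosen after seeing the data and gave 1753, 2513 and 853 for the 3 contrasts. The labels pair replicates by no more than a number, although replicates 3 of both leukemic groups also shared the male pattern. The deviations of same-numbered leukemic MEP and GFP+ marrow libraries from their group means correlated across genes at 0.078, 0.231 and 0.148, each best with its own number. For leukemic MEP 1 the margin was small, as it correlated with GFP+ marrow 2 at 0.063. A replicate block called 321 genes in the fit of 4 groups and 0 in the fit of 2 (1307 at an unadjusted p under 0.05). Of the 63 named genes tested, 0 reversed in 25 alternatives, and the 41 called ones were all lost in at least 1, the fit of 2 groups. Without leukemic MEP 1, 2 or 3, 8, 7 and 41 of them were called. Leukemic MEP 3 limits genes of few reads, as 1 read there is worth 0.513 FPKM at the median gene. The causes of these changes were not tested.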

Other observations

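Lists of protein folding in the endoplasmic reticulum and of the lysosome had negative medians in leukemic MEP against GFP+ marrow. Both lists were written after values had been seen, so their counts are descriptions. Of 31 folding and unfolded protein response genes, 14 fell (2.44% of all tested genes) and 0 rose with all libraries, and 22 fell without leukemic MEP 3 (10.9%), with medians of -0.97 and -1.22 against -0.01 and 0.05 over all genes. Edem2, which clears misfolded glycoproteins, was at 62.3, 51.0 and 81.7 FPKM in the leukemic MEP libraries and 146, 151 and 138 in GFP+ marrow, a difference of -1.17 ± 0.20 (limma adjusted p = 0.0138). Xbp1, a transcription factor of the unfolded protein response, was at 104, 134 and 315 against 369, 546 and 421 (limma adjusted p = 0.0393). Selenos was at 92.7, 121 and 60.4 against 221, 316 and 222. In these 3 genes every leukemic MEP library lay below every marrow library, and in wild-type mice the list median was -0.55. Leukemic MEP was below marrow without overlap in 18 of the 31 genes (8.71% of all genes) and above it in 1, Ddit3. Ddit3 was at 53.6, 32.3 and 36.5 against 27.8, 14.9 and 24.0 (limma adjusted p = 0.145). Atf4 overlapped between the groups (difference 0.32, limma adjusted p = 0.609). After rescaling to equal FPKM totals 2 of the 31 were called lower and the median was -0.54.

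Of 33 lysosome genes, 16 fell (2.44% of all tested genes) and 0 rose with all libraries, and 26 fell without leukemic MEP 3 (10.9%), with medians of -0.89 and -1.06. Gla, the lysosomal alpha-galactosidase, was at 3.61, 6.54 and 9.39 FPKM in the leukemic MEP libraries and 21.7, 27.2 and 28.5 in GFP+ marrow, a difference of -1.90 ± 0.29 (limma adjusted p = 0.00968). The cathepsin gene Ctsb was at 50.8, 37.5 and 141 against 232, 216 and 265 (limma adjusted p = 0.0211). The median in wild-type mice was -0.91, with 16 lower (11.2% of all tested genes). After rescaling to equal FPKM totals 7 of the 33 were called lower, with a median of -0.46. Granule and monocyte markers fell in the same libraries, and their part in both lists was not tested.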
